A study of Oryzias latipes with 8 samples.

Results

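The genes ebf3 and coe2 encode transcription factors of the early B-cell factor (EBF) family, and their transcripts were followed across 3 sorts of optic tectum cells from medaka (Oryzias latipes), a small laboratory fish. Both were found by the gene names that the authors paired with Ensembl medaka identifiers, ebf3 as ENSORLG00000005870 and coe2, an older zebrafish name for ebf2, as ENSORLG00000006408. They are 2 of 16957 genes with counts in all 8 libraries, and both were among the 15640 genes that passed the filter on low counts. Of the 12 family symbols looked for, 2 more had a name and counts, EBF1 (2 of 2) (ENSORLG00000007471) and ebf1a (ENSORLG00000002342), and both were tested.

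EBF proteins, also called COE proteins, are DNA-binding factors with a helix-loop-helix dimerisation domain, named for the mammalian factor that directs B lymphocyte development. In the vertebrate nervous system they are switched on as progenitors leave the cell cycle, and in frog and chick embryos they act downstream of proneural factors to promote neuronal differentiation and migration. The fish optic tectum, the main visual centre of the midbrain, keeps neuroepithelial progenitors at its margin that continue to add neurons as the animal grows.

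All cells came from fish aged 1 month, and 30 tecta were dissociated before sorting. The wdr12:GFP line carries GFP under the promoter of wdr12, a ribosome biogenesis gene active in tectal neuroepithelial cells, and it gave GFP-positive cells (wdr12+, n = 3 libraries) and GFP-negative cells (wdr12-, n = 2). The submitters describe the negative cells as a mixture that includes amplifying progenitors, neurons and glia. The ebf3:GFP line marks tectal cells that have left the cell cycle, both young and differentiated neurons, and gave GFP-positive cells (ebf3+, n = 3). GFP-negative cells of the ebf3:GFP line were not analysed here, so in both comparisons with the ebf3+ cells the line and the sort cannot be told apart. The labels do not say whether replicates came from separate dissections, so the p-values measure the spread between these libraries, which may be technical. In such bulk samples, fewer cells of a type and less RNA per cell cannot be told apart.

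Depth ran from 8511255 to 11580629 counted reads in the wdr12+ libraries, was 3497101 and 5798458 in the wdr12- libraries, and ran from 5247836 to 7708019 in the ebf3+ libraries. Marker genes set the wdr12+ libraries apart from the others. The 22 tested markers of cycling cells summed to 5513 to 11667 CPM (read counts per library size, scaled for composition by the TMM method) in the wdr12+ libraries, against 414.5 to 566.4 in the wdr12- and 629.5 to 810.0 in the ebf3+ libraries. That sum was thus no higher in the wdr12- libraries, described as including amplifying progenitors, than in the ebf3+ libraries. The 34 tested markers of mature neurons and synapses summed to 476.3, 595.7 and 1428 CPM in the wdr12+ libraries, against 5117 to 5842 in the wdr12- and 3563 to 4273 in the ebf3+ libraries. The gene wdr12 itself averaged 70.1 ± 25.7 CPM (SD, n = 3) in the wdr12+ cells, 23.6 ± 3.0 CPM (n = 2) in the wdr12- cells and 23.3 ± 4.3 CPM (n = 3) in the ebf3+ cells.

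ebf3 was highest in the cells sorted on its own reporter, and its level there describes the sort more than it tests a difference. The 3 ebf3+ libraries held 2723, 2592 and 2257 CPM of ebf3. The wdr12- libraries held 656.4 and 661.9 CPM, and the wdr12+ libraries held 493.4, 235.7 and 489.3 CPM. Every ebf3+ library lay above all 5 others, and the lowest was replicate 2 of the wdr12+ cells. No group overlapped another, as was so for 49.8% of all tested genes between wdr12+ and wdr12- libraries, 37.8% between wdr12+ and ebf3+ libraries and 41.4% between wdr12- and ebf3+ libraries.

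The group means of ebf3 were 2524 ± 240 CPM (SD, n = 3) in the ebf3+ cells, 659.1 ± 3.8 CPM (n = 2) in the wdr12- cells and 406.1 ± 148 CPM (n = 3) in the wdr12+ cells. The level in the wdr12+ cells was 6.21-fold below that in the ebf3+ cells, a log2 difference of -2.64 ± 0.33 (SE) with an adjusted p of 4.7e-05 by edgeR's quasi-likelihood test. The level in the wdr12- cells was 3.83-fold below, at -1.94 ± 0.37 with an adjusted p of 0.0071. Without wdr12- replicate 1 or replicate 2 that log2 difference was -1.93 and -1.94, with adjusted p of 0.099 and 0.098, so the call was lost in both cases. Of all tested genes, 23.5% were called between wdr12+ and ebf3+ cells and 5.12% between wdr12- and ebf3+ cells.

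The lower ebf3 level of the wdr12+ cells against the wdr12- cells did not pass the test. The log2 difference was -0.70 ± 0.34, its 95% interval ran from -1.42 to 0.03, and the adjusted p was 0.18. With library totals as the only scaling the same difference was -1.15 with an adjusted p of 0.0051. In the order of levels, ebf3+, wdr12- and wdr12+, the last 2 were thus not separated by the test under the main scaling. ebf3 transcripts were also present in the wdr12+ cells, at 2043 to 4553 raw reads in each library.

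**Figure D1:**
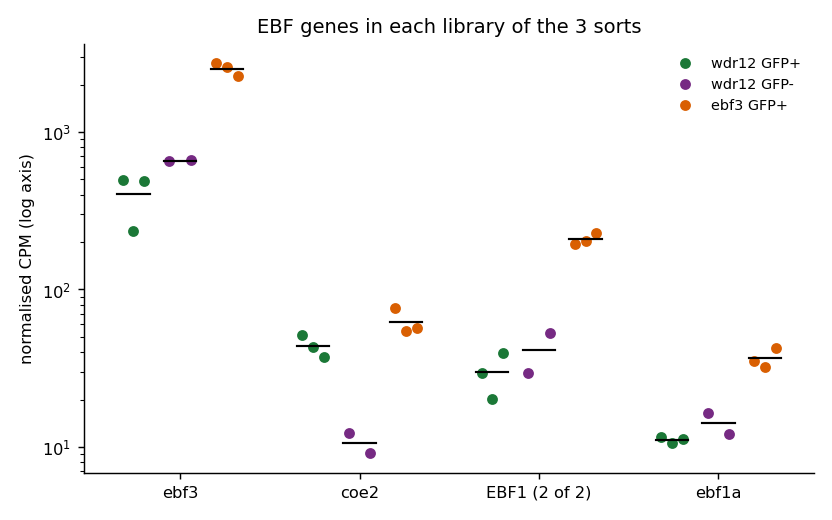
Normalised CPM (log axis) of the 4 EBF genes in each of the 8 libraries, with points for libraries and bars for group means. ebf3, EBF1 (2 of 2) and ebf1a are highest in the 3 ebf3+ libraries, while coe2 is lowest in the 2 wdr12- libraries.

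coe2 had another order. It was low in the wdr12- cells and higher in both the wdr12+ and the ebf3+ cells. The wdr12+ libraries held 51.5, 42.9 and 37.1 CPM of coe2, and the ebf3+ libraries held 76.3, 54.2 and 56.8 CPM. The wdr12- libraries held 12.2 CPM from 56 reads and 9.10 CPM from 53 reads, with 95% Poisson intervals of 9.20 to 15.8 and 6.82 to 11.9 CPM that cover counting error alone. Both wdr12- libraries lay below the 6 others. Of all tested genes, 49.8% did not overlap between wdr12+ and wdr12- libraries and 41.4% between wdr12- and ebf3+ libraries. The wdr12+ libraries lay just below the ebf3+ libraries, a lack of overlap shared by 37.8% of all tested genes.

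The mean coe2 level was 62.4 ± 12.1 CPM (SD, n = 3) in the ebf3+ cells, 43.8 ± 7.3 CPM (n = 3) in the wdr12+ cells and 10.6 ± 2.2 CPM (n = 2) in the wdr12- cells. Against the wdr12- cells, coe2 was 4.12-fold higher in the wdr12+ cells, a log2 difference of 2.04 ± 0.36 (SE) with an adjusted p of 0.00098 by edgeR. It was 5.87-fold higher in the ebf3+ cells than in the wdr12- cells, a log2 difference of -2.55 ± 0.37 for wdr12- minus ebf3+, with an adjusted p of 0.0016. Both calls held when any of the 8 libraries was left out, with adjusted p of 0.00065 to 0.031 and of 0.00094 to 0.042 respectively.

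Between the wdr12+ and ebf3+ cells no difference of coe2 was called. The log2 difference, wdr12+ minus ebf3+, was -0.51 ± 0.29 with a 95% interval from -1.12 to 0.10 and an adjusted p of 0.24. A level in the wdr12+ cells anywhere from about the same to below that in the ebf3+ cells lies within that interval. Against the wdr12- cells, the wdr12+ cells thus had a higher level of coe2 while their ebf3 level was lower by a margin that missed the threshold.

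The EBF1 genes, named for the founding member of the family, had group means in the order of ebf3. As with ebf3, the wdr12- and wdr12+ cells were not separated by the test under the main scaling. EBF1 (2 of 2) held 195.7, 203.2 and 229.4 CPM in the ebf3+ libraries, 29.6 and 52.7 CPM in the wdr12- libraries and 29.7, 20.3 and 39.8 CPM in the wdr12+ libraries. Its ebf3+ libraries stood apart from the rest, and the other groups overlapped. ebf1a held 35.0, 32.1 and 42.4 CPM in the ebf3+ libraries, 16.3 and 12.0 CPM in the wdr12- libraries and 11.5, 10.6 and 11.2 CPM in the wdr12+ libraries. Its ebf3+ libraries also stood above the rest, and the wdr12- and wdr12+ libraries were close. Such a lack of overlap with the ebf3+ libraries was shared by 37.8% of all tested genes for wdr12+ and 41.4% for wdr12- libraries.

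EBF1 (2 of 2) was lower in the wdr12+ than in the ebf3+ cells, with a log2 difference of -2.81 ± 0.33 (adjusted p of 2.9e-05, edgeR). In the wdr12- cells it was also lower, at -2.34 ± 0.37 (adjusted p of 0.0029), but without wdr12- replicate 1 that difference was -1.99 with an adjusted p of 0.062. For ebf1a the same comparisons gave -1.72 ± 0.33 (adjusted p of 0.0011) and -1.37 ± 0.37 (adjusted p of 0.047). The second of these was lost without any 1 of 6 libraries, with adjusted p of 0.128, 0.101 and 0.091 without ebf3+ replicates 1, 2 and 3, 0.221 and 0.394 without wdr12- replicates 1 and 2, and 0.061 without wdr12+ replicate 2. With library totals its adjusted p was 0.101, and with no filter on low counts it was 0.052. Between the 2 sorts of the wdr12:GFP line neither EBF1 gene was called, at -0.46 ± 0.34 for EBF1 (2 of 2) (adjusted p of 0.42) and -0.35 ± 0.36 for ebf1a (adjusted p of 0.60).

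Over the family, 1 of 4 genes, coe2, was called higher and 0 lower in wdr12+ against wdr12- cells, where 19.8% of all tested genes were called, 9.92% higher and 9.84% lower. With library totals as the only scaling, ebf3 and EBF1 (2 of 2) were called lower there too, EBF1 (2 of 2) at -0.84 with an adjusted p of 0.049. In wdr12+ against ebf3+ cells 3 of 4 were called lower and 0 higher, where 23.5% of all tested genes were called, 10.8% lower and 12.7% higher. In wdr12- against ebf3+ cells 4 of 4 were called lower, where 5.12% of all tested genes were called, 1.96% lower and 3.16% higher. Both counts against the ebf3+ cells include ebf3 itself. Those cells were sorted on its reporter, so its calls there describe the sort more than they test a difference. All 4 EBF genes bear a name, which the authors' files give to genes listed as changed, so the nearer background is that of the 4658 named and tested genes. Of those, 29.9% were called higher and 30.7% lower in wdr12+ against wdr12- cells, 31.8% lower in wdr12+ against ebf3+ cells and 6.18% lower in wdr12- against ebf3+ cells. These comparisons share libraries and are not independent of each other. How reads that match several EBF genes were assigned is not given in the sources used here, so levels of these related genes carry that uncertainty.

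**Figure D2:**
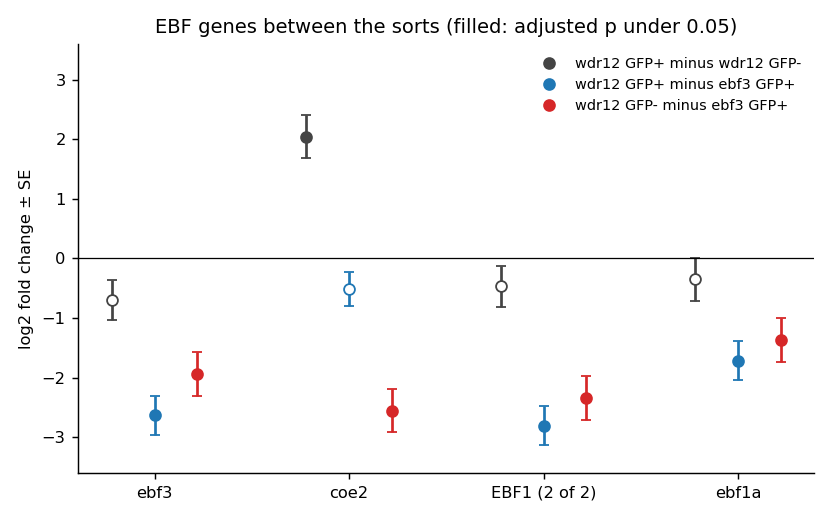
Log2 fold changes with standard errors of the 4 EBF genes in the 3 comparisons, from the edgeR fit of all 8 libraries, with filled points for an adjusted p under 0.05. coe2 is the member with a filled point above 0, at 2.04, for wdr12+ minus wdr12- cells, and the member without a filled point for wdr12+ minus ebf3+ cells.

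The reads of coe2 relative to ebf3 within each library need no scaling between libraries, so their comparison does not turn on normalisation. There were 10.4, 18.2 and 7.57 coe2 reads per 100 ebf3 reads in the wdr12+ libraries, 1.86 and 1.38 in the wdr12- libraries and 2.80, 2.09 and 2.52 in the ebf3+ libraries. The wdr12+ libraries were all far above the rest, and the wdr12- libraries lay just below the ebf3+ libraries. The ratio uses raw reads, not reads per length, and so compares libraries and not the abundance of the 2 transcripts.

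The mean ratio was 12.1 ± 5.5 (SD, n = 3) in wdr12+, 1.62 ± 0.34 (n = 2) in wdr12- and 2.47 ± 0.36 (n = 3) in ebf3+ libraries. An exact permutation test over the 560 arrangements of the 8 libraries gave a p of 0.0036 for the difference between the sorts, the smallest it can give, and 0.011 after Benjamini-Hochberg adjustment over 3 such ratios. As geometric means, the ratio of the wdr12+ libraries was 7.07-fold that of the wdr12- and 4.60-fold that of the ebf3+ libraries. The ebf3+ cells, which the test over all libraries includes, were sorted on the ebf3 reporter. Their low ratio thus describes the sort more than it tests a difference, and coe2 itself was not called between wdr12+ and ebf3+ cells. The divisor, ebf3, had levels without overlap between the 3 sorts. A gene with the same level in all 8 libraries would thus also differ in its ratio to ebf3. The p of this test therefore does not tell a change of coe2 from that of ebf3. How many other genes would reach it was not counted. Each pair of sorts gave an exact two-sided permutation p of 0.1, the smallest that so few libraries allow.

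The ratios of the EBF1 genes to ebf3 did not pass the same test. EBF1 (2 of 2) gave 6.02, 8.61 and 8.13 reads per 100 ebf3 reads in the wdr12+ libraries, 4.51 and 7.97 in the wdr12- libraries and 7.19, 7.84 and 10.2 in the ebf3+ libraries. These groups overlapped, and the exact permutation p was 0.42, also after adjustment. ebf1a gave 2.33, 4.50 and 2.29 in the wdr12+, 2.49 and 1.82 in the wdr12- and 1.29, 1.24 and 1.88 in the ebf3+ libraries, with an exact permutation p of 0.064 and 0.096 after adjustment. As with coe2, the wdr12+ libraries all lay above the ebf3+ libraries. That pair of sorts gave an exact two-sided permutation p of 0.1, the smallest possible.

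**Figure D3:**
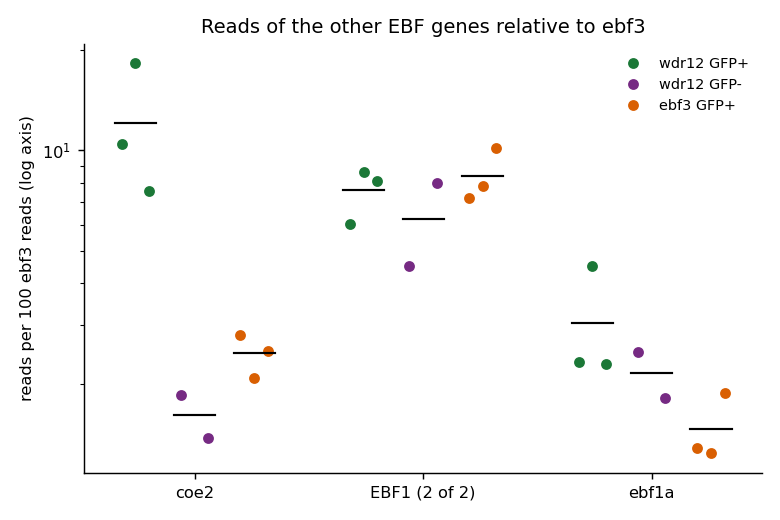
Reads of coe2, EBF1 (2 of 2) and ebf1a per 100 reads of ebf3 (log axis) in each library, with bars for group means. The wdr12+ libraries hold 7.57 to 18.2 coe2 reads per 100 ebf3 reads, above all other libraries, whereas the groups of EBF1 (2 of 2) overlap. For ebf1a the wdr12+ libraries lie above the ebf3+ libraries and overlap the wdr12- libraries.

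Zinc finger proteins of the ZNF423 family bind EBF proteins and alter their activity in mammals. Of the symbols looked for, ZNF423 and znf423, which are separate medaka genes, had counts. ZNF423 averaged 15.7 ± 0.39 CPM (SD, n = 3) in wdr12+, 17.4 ± 0.63 CPM (n = 2) in wdr12- and 39.1 ± 7.9 CPM (n = 3) in ebf3+ cells. znf423 averaged 30.1 ± 17.0, 61.5 ± 10.1 and 128 ± 13.4 CPM in the same order. Both were thus highest where ebf3 was highest.

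In wdr12+ against ebf3+ cells, 31.8% of named genes and 10.8% of all tested genes were called lower. Both ZNF423 genes were among them, at -1.31 ± 0.31 for ZNF423 (adjusted p of 0.0054) and -2.09 ± 0.36 for znf423 (adjusted p of 0.00055, edgeR). Neither was called in the other comparisons, with adjusted p of 0.848 and 0.073 for wdr12+ against wdr12- cells and 0.075 and 0.155 for wdr12- against ebf3+ cells. Without wdr12+ replicate 3, znf423 was called in the first of these, at -1.63 with an adjusted p of 0.0020, and with library totals at -1.42 with 0.014. Without wdr12+ replicate 1, ZNF423 was called in the second, at -1.13 with an adjusted p of 0.044.

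Genes of the other lists also bear names because the authors listed them as changed, so counts of calls run high. Beside the shares of named genes called lower, given above, 37.9% of named genes were called higher in wdr12+ against ebf3+ cells and 9.27% higher in wdr12- against ebf3+ cells. The median log2 difference of these named genes was 0.31, 0.28 and 0.19 in the 3 comparisons, and that of all tested genes was 0.05, 0.01 and 0.01.

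Proneural and NeuroD factors are basic helix-loop-helix proteins, several of which lie upstream of or beside EBF genes in frog and mouse neurogenesis, and 6 were tested. The NeuroD-type gene NEUROD2 (1 of 2) averaged 66.2 ± 25.1 CPM (SD, n = 3) in wdr12+, 85.1 ± 26.1 CPM (n = 2) in wdr12- and 726 ± 163 CPM (n = 3) in ebf3+ cells. neurod2, neurod and neurod6b, which drive or maintain neuronal differentiation, were also highest in the ebf3+ cells, at 167 ± 29.9, 113 ± 24.4 and 61.2 ± 4.9 CPM. Their means were 26.6 ± 2.2, 23.5 ± 9.8 and 12.0 ± 3.5 CPM in the wdr12+ and 38.4 ± 7.9, 45.6 ± 26.1 and 11.3 ± 3.4 CPM in the wdr12- cells. In these 4 of the 6 genes the ebf3+ cells had the highest mean, an order whose share among all tested genes was not counted.

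neurod4, a NeuroD factor of early neurogenesis, differed. It averaged 117 ± 35.2 CPM (SD, n = 3) in the wdr12+, 9.35 ± 4.0 CPM (n = 2) in the wdr12- and 42.9 ± 4.8 CPM (n = 3) in the ebf3+ cells. Like coe2 it was lowest in the wdr12- cells, but unlike coe2 it was highest in the wdr12+ cells. It was higher in wdr12+ than wdr12- cells by 3.65 ± 0.42 (adjusted p of 7.2e-05) and than ebf3+ cells by 1.45 ± 0.32 (adjusted p of 0.0032, edgeR). olig2, a factor of oligodendrocyte and motor neuron lineages, averaged 8.24 ± 0.97, 9.58 ± 2.5 and 1.56 ± 0.62 CPM in the same order.

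In wdr12+ against ebf3+ cells 4 of the 6 were called lower, with log2 differences of -3.45 ± 0.35 for NEUROD2 (1 of 2), -2.64 ± 0.28 for neurod2, -2.27 ± 0.38 for neurod and -2.35 ± 0.33 for neurod6b, and 2 were called higher, neurod4 and olig2, the latter by 2.38 ± 0.58. In wdr12- against ebf3+ cells 4 of 6 were called lower, NEUROD2 (1 of 2) at -3.09 ± 0.41, neurod2 at -2.11 ± 0.32, neurod4 at -2.20 ± 0.39 and neurod6b at -2.43 ± 0.40, and olig2 was called higher at 2.60 ± 0.63. Without wdr12- replicate 1 the adjusted p was 0.051 for neurod2, 0.069 for neurod6b and 0.107 for olig2. Without wdr12- replicate 2 it was 0.113 for neurod4 and 0.252 for olig2, and without ebf3+ replicate 1 it was 0.095 for olig2. neurod missed the threshold there, at -1.31 ± 0.42 (adjusted p of 0.091), and passed it without wdr12+ replicate 3 (adjusted p of 0.049). In wdr12+ against wdr12- cells 1 of 6, neurod4, was called, and with library totals neurod2 and neurod were called lower as well (adjusted p of 0.029 and 0.020) while neurod6b changed sign. neurod was called there too without wdr12+ replicate 3, at -1.40 with an adjusted p of 0.018. Of named genes, 31.8% were called lower and 37.9% higher in wdr12+ against ebf3+ cells. The shares were 6.18% and 9.27% in wdr12- against ebf3+ cells, and 30.7% and 29.9% in wdr12+ against wdr12- cells.

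Markers of early neuronal differentiation were highest in sum in the same cells as ebf3. Their 20 tested members summed to 14680 to 16879 CPM in the ebf3+ libraries, against 4210 to 6240 in the wdr12+ and 4762 to 6079 in the wdr12- libraries. Abundant genes weigh most in that sum, with tubb5 (2 of 2) and pou4f2 averaging 6379 and 2311 CPM in the ebf3+ cells. In wdr12+ against ebf3+ cells 14 were called lower and 2 higher, with a median log2 difference of -1.73. The 2 were ZIC1, by 3.33 ± 0.50, and onecut1, by 2.63 ± 0.54. In wdr12- against ebf3+ cells 7 of the 20 were called lower, 1 was called higher and 12 were not called (median -0.54). In wdr12+ against wdr12- cells 11 were called lower and 2 higher (median -1.14). In the order of these 3 comparisons, 31.8%, 6.18% and 30.7% of named genes were called lower and 37.9%, 9.27% and 29.9% higher.

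pou4f2, a POU factor best known from retinal ganglion cells, averaged 2311 ± 45.5 CPM (SD, n = 3) in ebf3+, 482 ± 57.6 CPM (n = 2) in wdr12- and 173 ± 51.6 CPM (n = 3) in wdr12+ cells. It was lower in wdr12+ than in ebf3+ cells, at -3.74 ± 0.32 (adjusted p of 9.5e-06, edgeR), and than in wdr12- cells, at -1.48 ± 0.32 (adjusted p of 0.0040, and 0.0502 without wdr12- replicate 2). tubb5 (2 of 2), a beta tubulin of young neurons, had 6379 ± 933 CPM in the ebf3+ cells against 1979 ± 283 in the wdr12+ and 1227 ± 386 in the wdr12- cells. Both differences with the ebf3+ cells passed the test, at -1.69 ± 0.30 (adjusted p of 0.00064) and -2.38 ± 0.36 (adjusted p of 0.0019).

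Other members of the list split the same 3 sorts in other ways. elavl2, an RNA-binding protein of neurons, averaged 9.55 ± 2.8 CPM in wdr12+, 67.9 ± 12.6 in wdr12- and 62.2 ± 8.6 in ebf3+ cells, and so did not share the low wdr12- level of coe2. celf4, an RNA-binding protein, and stmn2a, a microtubule regulator of growing axons, were also low in the wdr12+ cells, at 114 ± 45.6 and 36.2 ± 20.3 CPM. Their log2 differences from the ebf3+ cells were -2.70 ± 0.32 for elavl2, -2.45 ± 0.32 for celf4 and -2.20 ± 0.36 for stmn2a, with adjusted p of 3.2e-05, 6.1e-05 and 0.00038.

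SOX11, a high mobility group factor of newborn neurons, resembled coe2. It averaged 340 ± 63.9 CPM (SD, n = 3) in wdr12+, 124 ± 13.3 (n = 2) in wdr12- and 427 ± 15.2 (n = 3) in ebf3+ cells. Its difference between wdr12+ and wdr12- cells was 1.45 ± 0.30 (adjusted p of 0.0033, and 0.066 without wdr12- replicate 1). Between wdr12- and ebf3+ cells it was -1.78 ± 0.31 (adjusted p of 0.0043, and 0.086 and 0.059 without wdr12- replicates 1 and 2).

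EBF genes of other vertebrates are turned on around the last division, and 6 regulators of cell cycle exit were tested. rb1, the retinoblastoma gene that restrains entry into S phase, averaged 73.1 ± 21.5 CPM (SD, n = 3) in wdr12+, 18.1 ± 2.1 (n = 2) in wdr12- and 21.9 ± 8.3 (n = 3) in ebf3+ cells. It was called higher in the wdr12+ cells in both comparisons, by 2.01 ± 0.41 (adjusted p of 0.0029, and 0.054 without wdr12- replicate 2) and 1.74 ± 0.35 (adjusted p of 0.0018). The antiproliferative genes btg1 and btg3 were called higher in wdr12+ than in wdr12- cells, by 1.45 ± 0.37 (adjusted p of 0.011) and 1.46 ± 0.47 (adjusted p of 0.039). The call of btg1 was lost without wdr12- replicate 1 (adjusted p of 0.185). That of btg3 was lost without any 1 of 6 libraries: ebf3+ replicate 1 or 2 (0.053 and 0.065), wdr12- replicate 1 or 2 (0.079 and 0.350) and wdr12+ replicate 1 or 3 (0.101 and 0.090). It was lost with library totals too (0.157). Without ebf3+ replicate 3, btg3 was called lower in wdr12- than in ebf3+ cells (-1.65, adjusted p of 0.034), which the fit of all libraries did not call (-1.33 ± 0.47, adjusted p of 0.124).

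tob1a, a relative of the BTG genes, averaged 652 ± 233 CPM in wdr12+, 703 ± 5.2 in wdr12- and 237 ± 22.6 in ebf3+ cells. It was lowest in the cells with most ebf3. It was called higher in both sorts of the wdr12:GFP line than in ebf3+ cells, by 1.46 ± 0.30 (adjusted p of 0.0019) and 1.57 ± 0.32 (adjusted p of 0.011). The second was lost without ebf3+ replicate 1 (0.073) or wdr12- replicates 1 (0.086) and 2 (0.083). gadd45g, a growth arrest gene, averaged 139 ± 19.3, 77.4 ± 5.7 and 192 ± 29.4 CPM in wdr12+, wdr12- and ebf3+ cells, an order like that of coe2.

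Its difference between wdr12- and ebf3+ cells was -1.31 ± 0.30 (adjusted p of 0.020), which was lost without ebf3+ replicate 1 (0.101) or 2 (0.072) or wdr12- replicate 1 (0.239) or 2 (0.169). Without wdr12+ replicate 1, gadd45g was also called higher in wdr12+ than wdr12- cells, by 0.89 (adjusted p of 0.039), as it was with DESeq2 (0.82, adjusted p of 0.015) and with erythrocyte and plasma protein genes left out of library sizes (0.87, adjusted p of 0.046). With library totals gadd45g was called lower in wdr12+ than in ebf3+ cells (-0.70, adjusted p of 0.041). CDKN1C, which encodes an inhibitor of cyclin-dependent kinases, was not called, at 76.3 ± 34.6, 51.5 ± 9.5 and 124 ± 37.0 CPM. It was called without wdr12+ replicate 1 as lower in both sorts of the wdr12:GFP line than in the ebf3+ cells (adjusted p of 0.014 and 0.027), and in the wdr12- cells without ebf3+ replicate 3 (0.043), with DESeq2 (0.025) and with the 2 compared groups only (0.018). With library totals CDKN1C was called lower in wdr12+ than in ebf3+ cells (-0.97, adjusted p of 0.023). In the fit of all 8 libraries, 3 of these 6 genes were called higher in wdr12+ than wdr12- cells, 2 were called higher there than in ebf3+ cells, and 1 was called higher and 1 lower in wdr12- than in ebf3+ cells. Of named genes 29.9% and 37.9% were called higher in the first 2 comparisons, and 9.27% higher and 6.18% lower in the third. These counts of 6 genes were not tested against those shares.

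Cycling and neuronal maturity set the wdr12+ cells apart from both sorts against which ebf3 was compared. Of 22 cycling markers 21 were called higher in wdr12+ than in wdr12- cells (median 4.30) and 21 higher than in ebf3+ cells (median 3.57). uhrf1, which maintains DNA methylation at replication, averaged 182 ± 53.2 CPM in wdr12+ cells, 7.32 ± 0.82 in wdr12- and 8.73 ± 2.1 in ebf3+ cells. Of 34 markers of mature neurons 33 were called lower in wdr12+ than in wdr12- cells (median -2.75) and 23 lower than in ebf3+ cells (median -1.99). Of named genes, 29.9% were called higher and 30.7% lower in wdr12+ against wdr12- cells, and 37.9% and 31.8% against ebf3+ cells. coe2 was higher in the wdr12+ than in the wdr12- libraries, and the wdr12+ libraries were rich in cycling transcripts. It was also higher in the ebf3+ libraries, where cycling transcripts were low. Which cells of a sort held the coe2 transcripts cannot be told from these bulk libraries.

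In the fit of all 8 libraries, all 4 EBF genes were called lower in wdr12- than in ebf3+ cells, where the call of ebf3 describes the sort. Of these calls, that of coe2 alone held when any of the 8 libraries was left out. Between the same cells, 1 of 22 cycling markers and 3 of 34 mature neuron markers were called, all higher in the wdr12- cells. Of all named genes 9.27% were called higher there, a share that neither count exceeds. The 3 mature neuron markers were slc32a1, the vesicular GABA transporter, and gad1b and gad2, which make GABA. slc32a1 averaged 127 ± 4.5 CPM (SD, n = 2) in wdr12- and 42.9 ± 4.9 CPM (n = 3) in ebf3+ cells, a log2 difference of 1.56 ± 0.30 (adjusted p of 0.0071). gad1b and gad2 differed by 2.29 ± 0.46 (adjusted p of 0.0095) and 2.13 ± 0.41 (adjusted p of 0.0076). The adjusted p of all 3 was over the threshold without wdr12- replicate 1 (0.085, 0.051 and 0.076) or replicate 2 (0.072, 0.080 and 0.091), and without ebf3+ replicate 1 it was 0.054 for slc32a1 and 0.065 for gad1b. The vesicular glutamate transporter genes slc17a6a and slc17a6b were not called there, at -0.52 ± 0.36 (adjusted p of 0.50) and -0.37 ± 0.35 (adjusted p of 0.67).

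**Figure D4:**
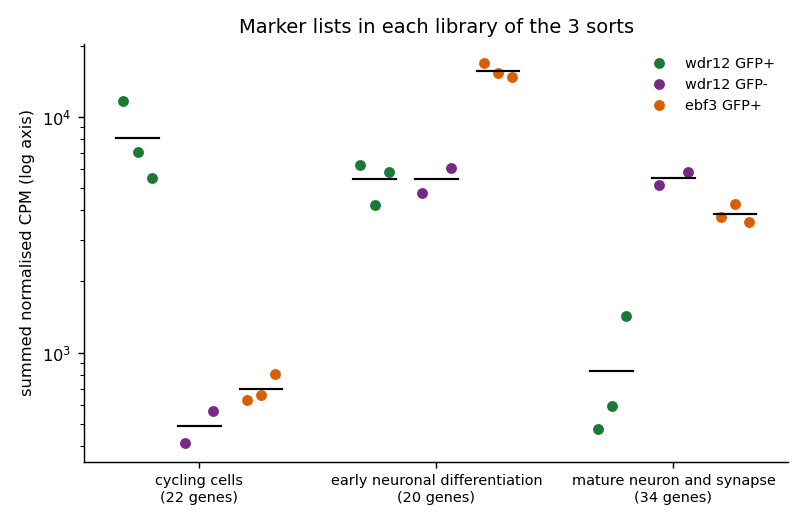
Summed normalised CPM (log axis) of the tested markers of cycling cells, early neuronal differentiation and mature neurons in each library, with bars for group means. Abundant genes weigh most in each sum. The ebf3+ libraries lie highest for early neuronal differentiation, at 14680 to 16879, and the wdr12+ libraries lie highest for cycling cells and lowest for mature neurons.

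Markers of other cell types also differed between the sorts, and their part in the EBF results was not tested. The 12 erythrocyte genes summed to 27360 and 137540 CPM in the wdr12- libraries, where coe2 was lowest, against 572.5 to 1278 in the other 6 libraries. In those 2 wdr12- libraries, in the same order, ebf3 was at 656.4 and 661.9 CPM and coe2 at 12.2 and 9.10 CPM. EBF1 (2 of 2) was at 29.6 and 52.7 CPM there, and ebf1a at 16.3 and 12.0 CPM. Whether these levels depend on the erythrocyte content was not tested. The 4 plasma protein genes summed to 24465, 64664 and 106960 CPM in the wdr12+ libraries, 15786 and 17173 in the wdr12- and 542.6 to 2680 in the ebf3+ libraries. When both lists were left out of the library sizes, the calls of ebf3 and coe2 were as before. That setting changes the scaling alone, and the effect of the mix of cells in each sort was not tested.

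The ebf3+ libraries had the lowest sums for radial glia, for microglia and leukocytes, and for meninges and fibroblasts. Abundant genes weigh most in such sums. For oligodendrocyte genes the ebf3+ and wdr12+ libraries overlapped. Radial glia genes (14 tested) summed to 3471 to 3708 CPM in the ebf3+ libraries, against 11045 to 17844 in wdr12+ and 9037 to 9343 in wdr12- libraries. Oligodendrocyte genes (8 tested) summed to 210.9 to 924.5, against 821.4 to 1550 and 3453 to 4829 CPM. Genes of microglia and leukocytes (10 tested) summed to 95.6 to 281.0, against 895.6 to 1623 and 965.1 to 1047 CPM, with up to 2 of the 10 at 0 in an ebf3+ library. Markers of meninges and fibroblasts (6 tested) summed to 34.6 to 106.4, against 409.0 to 1245 and 268.9 to 348.8 CPM, and those of endothelium and mural cells (5 tested) to 127.9 to 136.0, against 332.2 to 473.5 and 114.2 to 115.8 CPM. In wdr12+ against ebf3+ cells 12 radial glia genes were called higher and 1, ndrg2, lower. Of the endothelium and mural genes 4 were called higher there and 1, cdh5, lower. In wdr12- against ebf3+ cells 6 oligodendrocyte genes were called higher and 1, cnp, lower. The shares of named genes were 37.9% higher and 31.8% lower in the first comparison, and 9.27% and 6.18% in the second.

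Genes whose levels varied over the 8 libraries most like ebf3 and most like coe2 were ranked among 3732 named genes with a mean of at least 10 CPM. The measure was the root mean square difference of log2(CPM + 1) after centring each gene on its mean, so a small value is a close match, and it is a description without a test. Closest to ebf3 was lhx9, a LIM homeodomain factor of the developing brain, with a difference of 0.17. Its means were 91.7 ± 26.3 CPM in wdr12+, 132 ± 22.6 in wdr12- and 571 ± 54.6 in ebf3+ cells. Next came adcyap1b, the precursor of the neuropeptide PACAP, at 0.20, with 184 ± 71.4, 329 ± 69.4 and 1030 ± 234 CPM. The others were NYAP2 (0.27), ribc2 (0.28), id2a (0.29), MPP3 (2 of 2) (0.29), nrp1a (0.30) and speg (0.31). Of these, id2a encodes an inhibitor of basic helix-loop-helix factors and reached 1099 ± 165 CPM in ebf3+ cells, and nrp1a encodes a semaphorin receptor of growing axons.

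Closest to coe2 was the unconventional myosin gene myo10l3, at 0.18, with 69.4 ± 10.6 CPM in wdr12+, 18.6 ± 3.5 in wdr12- and 100 ± 34.7 in ebf3+ cells. The rest were rbm4.3 (1 of 2) (0.23), hdac1 (1 of 2) (0.26), uck2b (0.30), pou3f2b (0.32), ube3d (0.32), tmeff1a (0.33) and TCF7L1 (0.33). hdac1 (1 of 2), a histone deacetylase, had 224 ± 45.6, 66.9 ± 5.0 and 310 ± 48.5 CPM. pou3f2b, a POU factor of neural progenitors and young neurons, had 165 ± 36.5, 43.8 ± 2.5 and 166 ± 9.1 CPM, and TCF7L1, an effector of Wnt signalling, had 97.4 ± 16.4, 36.2 ± 10.9 and 170 ± 23.3 CPM. All 8 were lowest in the wdr12- cells, which follows from their choice by likeness to coe2 over the same libraries.

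The EBF genes fell at different places in these rankings. From ebf3, EBF1 (2 of 2) was at rank 10 (0.33), ebf1a at rank 110 (0.58) and coe2 at rank 1508 (1.24). From coe2, ebf1a was at rank 817 (0.90), EBF1 (2 of 2) at rank 1374 (1.22) and ebf3 at rank 1402 (1.24). With a pseudocount of 5, 5 of the 8 nearest genes were shared with the ranking above for ebf3 and 5 of 8 for coe2.

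**Figure D5:**
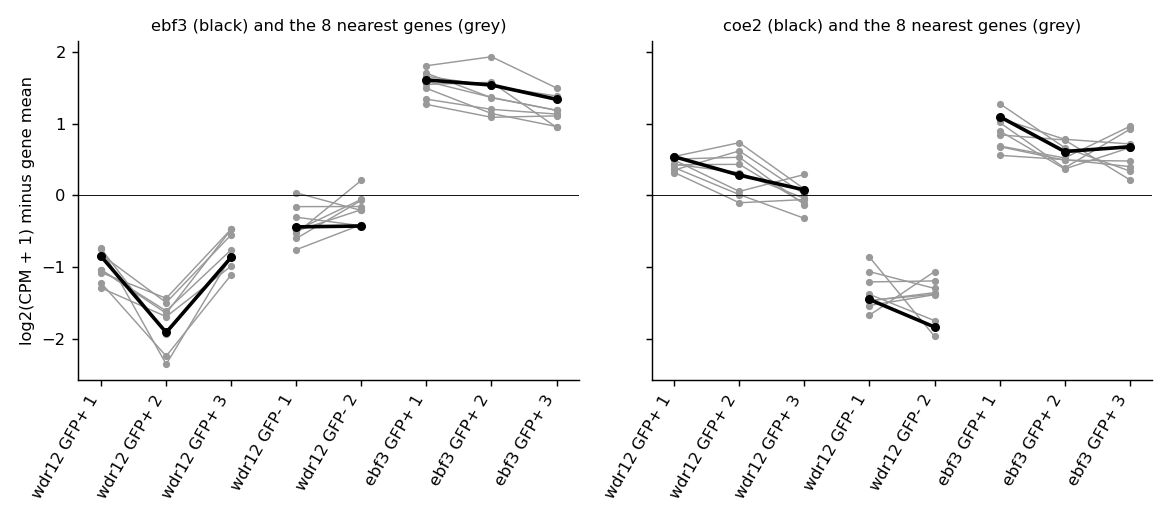
Log2(CPM + 1) minus each gene's mean in the 8 libraries, for ebf3 and its 8 nearest genes (left) and coe2 and its 8 nearest genes (right). Lines join the points of 1 gene within a sort and carry no order among replicates. The ebf3 group is high in the ebf3+ libraries alone, and the coe2 group is low in the wdr12- libraries alone. Both shapes follow from the choice of the genes by pattern.

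In the authors' deposited table the log2 fold change of ebf3 was -2.64 for wdr12+ over ebf3+ cells (adjusted p of 1.6e-10), -1.95 for wdr12- over ebf3+ cells (2.6e-10) and -0.77 for wdr12+ over wdr12- cells (0.18). In the authors' deposited table coe2 had -0.51 (adjusted p of 0.33), -2.57 (1.1e-10) and 1.98 (0.00018) in the same order. The same comparisons of ebf3 and coe2 passed the threshold in that table and in the edgeR fit.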

How the data were processed

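RNA of sorted tectal cells (4 ng for each library) was sequenced as single reads of 50 bases, per the labels. The submitters' processing notes name CASAVA 1.8.2, FastQC 0.10.1, TopHat2 and DESeq, and the counting program, strand setting and genome build are not stated in these sources. The authors deposited raw counts per Ensembl gene for each library, together with their own log2 fold changes and adjusted p-values for 3 comparisons, per the file headers. Names were read from the sheets in which the authors list changed genes. They cover 4662 of the 16957 genes, so the gene lists hold such genes alone. In those lists the comparisons with ebf3 cells carry the opposite sign, and directions were taken from the full tables. All 131234 count cells found in more than 1 table were equal, and replicates differed beyond counting noise.

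The 8 libraries were fitted together with edgeR 4.0.16 (TMM scaling, filterByExpr, quasi-likelihood F test), and p-values were adjusted by Benjamini-Hochberg over 15640 genes, with a threshold of 0.05. The fit was also run on simulated counts in which some genes were changed in the ebf3+ libraries alone. All other genes had equal means there, so shifts of composition like those of the erythrocyte and plasma protein genes were not simulated. The standard error is the log2 fold change over the square root of F. CPM values are TMM-scaled. Ratios of reads were compared by exact permutation over libraries. Those of the EBF1 genes were added after the data were seen. The alternatives were other scaling, filters, a replicate block, DESeq2 1.42.0, compared groups alone and leaving out each library.

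The members and lists were chosen with earlier results of these data known. Genes were named by rule: the EBF genes, wdr12, the 8 nearest to each of ebf3 and coe2 in pattern, and, of lists described by gene, members among the 4 with the smallest adjusted p in a comparison (all where up to 6 were tested). slc17a6a and slc17a6b were so chosen in the comparison of wdr12+ with ebf3+ cells. ZIC1 and onecut1 were named as the early neuronal markers called higher in that comparison. The calls of ZIC1, onecut1, ndrg2, cdh5 and cnp were not followed through the alternatives.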

Additional observations from a re-analysis of the deposited data

How the results depend on the processing

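Leaving out each library in turn moved ebf3 over -0.94 to -0.51 for wdr12+ minus wdr12-, -2.84 to -2.41 for wdr12+ minus ebf3+ and -2.01 to -1.88 for wdr12- minus ebf3+ cells (log2), and coe2 over 1.84 to 2.26, -0.67 to -0.34 and -2.78 to -2.36. The exact permutation p of the coe2 to ebf3 ratio ran from 0.0095 to 0.014 with a library left out. Each was the smallest that the remaining libraries allow, so the range reflects the number of arrangements. With library totals alone, ebf3 in wdr12+ minus wdr12- cells was -1.15 and past the threshold. That scaling shifted the median of all tested genes by -0.40, -0.24 and 0.15, and the share of calls that were higher went from 50.2% to 29.5%, 54.0% to 38.9% and 61.7% to 64.1%.

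The genes called between wdr12- and ebf3+ cells were 801, and 1605 with the 2 compared groups only, 1500 with DESeq2 and 169 to 1329 with a library left out. They were 209 and 169 without wdr12- replicates 1 and 2, 297 and 414 without ebf3+ replicates 1 and 2, and 1329 without wdr12+ replicate 1. Between wdr12+ and wdr12- cells they were 3090, and 1448 to 3375 with a library left out, of which 1448 and 1489 without wdr12- replicates 1 and 2. Between wdr12+ and ebf3+ cells they were 3671, and 2845 to 3631. With a pseudocount of 5, 5 of the 8 genes nearest to ebf3, and likewise to coe2, were shared.

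Same-numbered libraries of different sorts did not all deviate together (correlations of -0.24 to 0.21). The 2 wdr12- libraries deviate from their mean by equal and opposite amounts, so this check cannot decide whether the numbers pair libraries. The main fit did not pair them, and a replicate block was run as an alternative. With the replicate block the calls were 3121, 3757 and 1192, and coe2 was 2.13, -0.51 and -2.64 and ebf3 -0.79, -2.69 and -1.89, with no call of either changed. Under the block, adjusted p in wdr12- minus ebf3+ cells was 0.082 for ebf1a and 0.029 for CDKN1C, and in wdr12+ minus wdr12- cells 0.010 for znf423 and 0.040 for neurod. With DESeq2, wdr12- minus ebf3+ was called for ZNF423 (0.028) and neurod (0.034), and wdr12+ minus wdr12- for znf423 (0.039). With the 2 compared groups only, wdr12- minus ebf3+ was called for ZNF423 (0.030), znf423 (0.017) and neurod (0.032).

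Signs turned, with no call before or after, in these cases. In wdr12+ minus wdr12- cells neurod6b was -0.31 with library totals, -0.060 with the block, and -0.22 to 0.42 with a library left out (-0.20 without wdr12- replicate 1, -0.22 without wdr12+ replicate 3). With a library left out EBF1 (2 of 2) ran from -0.82 to 0.014 and olig2 from -0.46 to 0.072 (both highest without wdr12- replicate 2), and tob1a from -0.48 to 0.0053 (highest without wdr12+ replicate 2). In wdr12- minus ebf3+ cells wdr12 was -0.17 with the block and -0.12 to 0.16 with a library left out (-0.12 without wdr12- replicate 1 or ebf3+ replicate 3), and elavl2 was -0.078 to 0.30 (lowest without wdr12- replicate 2). btg3 in wdr12+ minus ebf3+ cells was -0.12 with library totals, and -0.19 to 0.31 with a library left out (-0.035, -0.026 and -0.19 without wdr12+ replicates 1 and 3 or ebf3+ replicate 3). The cause of these changes was not tested. The other results kept direction and call in 1303 of their alternatives, lost the call in 46 and gained it in 31. The smallest counts behind a value of ebf3 or coe2 were the 56 and 53 coe2 reads of the wdr12- libraries.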
